A study of Mus musculus with 10 samples.

Results

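Weak new C/EBPβ sites without GR are the low peaks that appeared in the C/EBPβ list 6 h after the start of adipocyte differentiation. They overlapped no C/EBPβ peak listed for undifferentiated cells and no listed glucocorticoid receptor (GR) peak. They were selected on 3 measured properties. Peak height, the authors' whole-number read signal at a peak, was below 20. The peak shared no base with any C/EBPβ peak listed at 0 h. It also shared none with any GR peak listed at 6 h. The rule gave 8581 of the 20746 C/EBPβ peaks at 6 h (41.4%). The 0 h list was shorter, with 10359 peaks, and new means only not listed there.

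The cells were 3T3-L1, a clonally derived mouse preadipocyte line that turns into fat-laden adipocytes in culture. All groups grew in high-glucose medium with fetal bovine serum, and the hormones used for induction are not named in the labels. C/EBPβ was precipitated at 0 h (undifferentiated) and at 6 h, GR at 6 h with a pair of antibodies, and acetylated lysine 9 of histone H3 (H3K9ac) at 0, 24 and 240 h. Each factor and time is 1 library of unknown depth with no replicate. The lists hold no expression values, so the cell type was not checked against marker genes.

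C/EBPβ is a basic leucine zipper transcription factor. It binds DNA as a dimer and is among the first factors active when preadipocytes are induced, upstream of the adipocyte regulators C/EBPα and PPARγ. GR is a nuclear receptor that moves to the nucleus and binds DNA when glucocorticoids are present, and at many regulatory elements it binds beside other factors. H3K9ac is a histone mark of active promoters and enhancers. The deposited H3K9ac lists leave out transcription start sites. They hold only regions enriched at one time relative to another.

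Selection set most of what can be said of the peaks themselves, so their heights and folds are given as description. Of 11871 peaks of height below 20 in the 6 h list, 9278 were new at 6 h, and 8581 of these (92.5%) lacked GR. Of all 20746 peaks in that list, 13350 were new, 18040 lacked GR and 11700 were both. Lacking GR was thus common throughout the list. Among all 11700 new peaks without GR, whatever their height, the weak ones made up 73.3%. Member heights ran from 12, the lowest value the list holds, to 19, with a median of 14 and quartiles of 13 and 16. Numbers fell at every step of height. There were 1989 members of height 12, 1560 of 13, 1285 of 14, 1057 of 15, 847 of 16, 729 of 17, 592 of 18 and 522 of 19. The next step, outside the limit, held 415 peaks of height 20. The limit of 20 therefore divides a continuous distribution, with no gap or second mode at that height. With no replicate and no stated calling threshold, whether each low peak is a binding site was not tested. At a true site, a low peak can come from binding in few cells or from weak binding in many. These cannot be told apart here.

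Fold enrichment, the authors' ratio over a background they do not define, had a median of 7.29 among members (quartiles 6.55 and 8.23, range 4.11 to 12.22). Strong new sites without GR, those of height 20 or more, had a median of 11.03. Height and fold were related but not the same ordering. Across the 8581 members of this single library, Spearman's rho between them was 0.631 (Pearson's r 0.645). A total of 593 members (6.91%) reached the lower quartile of the strong sites, 9.50, and 35 (0.408%) reached their median. Fold fell with width (rho -0.409), while height rose slightly with it (rho 0.173). Members were narrow, with a median width of 263 bp and quartiles of 206 and 345 bp. Only 482 (5.62%) were over 500 bp wide, and the widest measured 1203 bp. Peaks just inside the limit (height 19) had a median fold of 9.02, from 6.04 to 11.97. Peaks just outside it (height 20) had a median of 9.47, from 5.79 to 12.74.

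**Figure D1:**
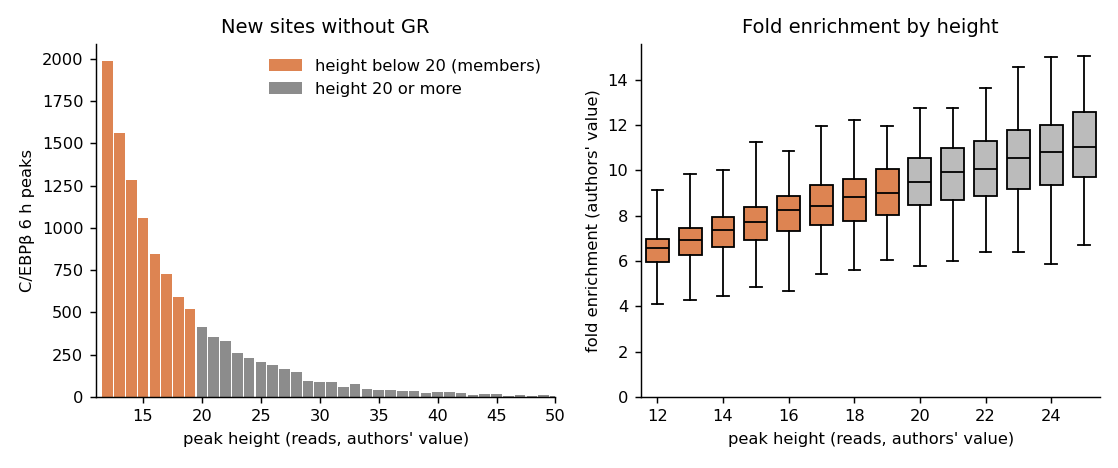
Left, the number of new C/EBPβ 6 h peaks without GR at each peak height up to 50, with members (height below 20) in orange and stronger peaks in grey. Right, fold enrichment at each height from 12 to 25 (box, quartiles with the median; whiskers, lowest and highest). Counts fall steadily through the limit of 20, and the median fold climbs from 6.57 at height 12 to 9.02 at 19.

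The 5 members with the highest fold enrichment differed in their surroundings. The first lay on chromosome 4 at 92414126 to 92414271 (mm8), a peak of 145 bp with height 18 and fold 12.22. Its nearest other C/EBPβ 6 h peak was 80.8 kb away and its nearest GR peak 133.4 kb away. The second, on chromosome 18 at 56849360 to 56849744, had height 18 and fold 12.15, and an H3K9ac 240 h region lay 31.4 kb from it. Folds of 11.97 were listed on chromosome 9 at 79303102 to 79303695 (height 19) and on chromosome 4 at 13640248 to 13640394 (height 17). The chromosome 9 peak had another C/EBPβ 6 h peak 4.91 kb, a C/EBPβ 0 h peak 5.13 kb and a GR peak 9.50 kb away. The second chromosome 4 peak had another C/EBPβ 6 h peak 3.49 kb away. The fifth lay on chromosome 17 at 31898614 to 31898785, with height 19 and fold 11.8. None of the 5 was near an H3K9ac region of any list, where near means a gap under 1 kb. Genes at these positions are not named because no annotation of the mm8 build was used here.

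The rule that chose the members used no H3K9ac values. Members and comparisons were still chosen with earlier results of these data known, so nearness to H3K9ac regions is given as description. Most members, like most peaks of the whole list, had none of the listed acetylated regions beside them. Of 8581 members, 7676 (89.5%) were near no region of any list, against 86.3% of all C/EBPβ 6 h peaks. Another 899 were near regions of 1 list and 6 near regions of 2. Members lay near 0 h regions in 380 cases (4.43%, 95% Wilson interval 4.01 to 4.88%), against 5.68% of all C/EBPβ 6 h peaks. Near 24 h regions there were 170 (1.98%, 1.71 to 2.30%), against 3.11% of all peaks. Near 240 h regions there were 361 (4.21%, 3.80 to 4.65%), against 4.98% of all peaks. Members were thus below the whole list at each time, and by the largest ratio at 24 h. The whole list contains the members, so these pairs of shares are not independent. The H3K9ac lists differ in length, with 4429, 1629 and 7845 regions over 8.25, 2.72 and 16.6 Mb. Shares of peaks are therefore compared within a list and not between lists. A peak far from listed regions may still be acetylated. All intervals cover counting error only and treat each peak as independent.

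Peak strength was the first property examined, with strong new sites without GR as the comparison (3119 peaks). Members were less often near a region of the 24 h list, with 1.98% against 3.46% (108 strong peaks, 2.88 to 4.16%), a difference of -1.48 percentage points (95% Newcombe interval -2.23 to -0.815). At 240 h the shares were 4.21% and 5.23%, a difference of -1.02 points (-1.95 to -0.166). Its interval reached 0 when peaks of height 12 and 13 were left out (-0.794, -1.79 to 0.151) and with 1 peak per 100 kb (-0.838, -1.86 to 0.101). At 0 h weak and strong new sites had 4.43% and 4.23%, a difference of 0.196 points (-0.674 to 0.992).

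Among the members themselves, shares near 24 h regions varied little with height. Members of height 12 to 13, 14 to 15, 16 to 17 and 18 to 19 lay near 24 h regions in 1.94%, 1.964%, 1.90% and 2.24% of cases. Above the limit the shares were 3.14% for heights of 20 to 24, 3.63% for 25 to 34 and 4.34% for 35 and more. Single heights at the limit had overlapping intervals and showed no clear step. The shares were 2.68% (1.60 to 4.45%) at 19, 3.61% (2.20 to 5.88%) at 20 and 1.98% (0.964 to 4.04%) at 21. The upper members (16 to 19) differed from the lower ones (12 to 15) by 0.0925 points (-0.516 to 0.780) at 24 h and by 0.481 points (-0.441 to 1.48) at 0 h. With 1 peak per 100 kb, the 24 h difference was 0.699 points (0.0378 to 1.45). At 240 h that difference was 0.911 points (-0.00319 to 1.90). Members of height 18 to 19 stood highest there, with 6.10% (4.84 to 7.67%) against 3.89% to 3.97% in the lower 3 classes.

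**Figure D2:**
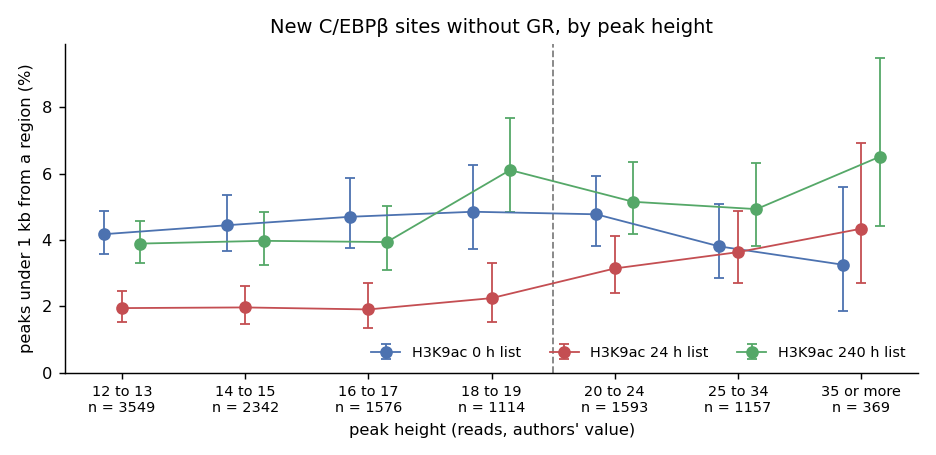
Share of new C/EBPβ 6 h sites without GR that lie under 1 kb from a listed H3K9ac region (vertical axis, percent), by class of peak height, for the 0, 24 and 240 h lists. Bars are 95% Wilson intervals and the dashed line is the height limit, with members on its left. By class, the 24 h shares stay between 1.90% and 2.24% among members and run from 3.14% to 4.34% beyond the limit. Single heights of 19 and 20, not drawn, have 2.68% and 3.61% with overlapping intervals.

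Prior occupancy was examined next, against weak sites that the 0 h list already held and that also lacked GR (2519 peaks, median height 15). New and previously occupied weak sites had opposite orders at different times. The lists hold regions enriched at one time relative to another, and only 6 members were near regions of 2 lists. The orders are therefore not independent between lists. Near 0 h regions members had 4.43% and the earlier sites 8.06% (203 peaks), a difference of -3.63 points (-4.83 to -2.53). Near 240 h regions the shares were 4.21% and 5.76% (145 peaks), a difference of -1.55 points (-2.61 to -0.595). Near 24 h regions members were the higher, with 1.98% against 0.913% (23 peaks, 0.609 to 1.37%), a difference of 1.07 points (0.538 to 1.51). Weak C/EBPβ sites listed only after induction were therefore more often near listed 24 h regions than weak sites listed at both times. The reverse held for regions of undifferentiated cells and of adipocytes.

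The largest of these differences went with GR on the peak, at 24 h. Weak new sites that did overlap GR numbered 697 (median height 15), and 71 of them (10.2%, 8.15 to 12.7%) were near a 24 h region. Members differed from them by -8.21 points (-10.7 to -6.15). Near 0 h and 240 h regions the sites with GR had 3.30% each, and members differed by 1.13 points (-0.527 to 2.31) and 0.907 points (-0.746 to 2.09). Those intervals include 0, and they allow members to exceed sites with GR by up to 2.31 points. Weak sites with GR were also wider (median 348 bp) than members (263 bp). Measuring from peak centres in place of edges left the 24 h difference with the same sign and an interval without 0.

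**Figure D3:**
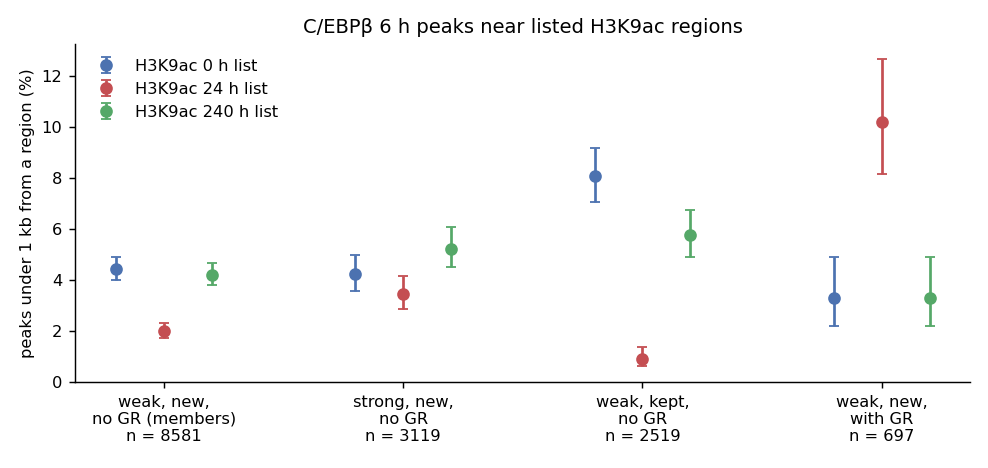
Share of C/EBPβ 6 h peaks under 1 kb from a listed H3K9ac region (vertical axis, percent) for members and for 3 classes that each differ from them in 1 part of the rule. Points are shares for the 0, 24 and 240 h lists and bars are 95% Wilson intervals. At 24 h members (1.98%) lie below strong new sites (3.46%) and sites with GR (10.2%) and above sites kept from 0 h (0.913%).

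Absence of GR from a member does not mean absence of GR from its surroundings. A GR peak lay under 10 kb from 1284 members without touching them, or in 1 case touching end to end (14.96%, 14.2 to 15.7%). Over all C/EBPβ 6 h peaks without GR the share was 14.01%, close to that of members. Among strong new sites without GR it was 15.8%. The median member was 90.9 kb from the nearest GR peak, with quartiles of 23.3 and 285.5 kb. These 1284 members had 1044 different GR peaks as their nearest. In 910 of the 1284 cases (70.9%) the nearest GR peak overlapped a C/EBPβ 6 h peak, which by the rule was never the member itself. The same share over all 4007 GR peaks was not computed, so this count is not read as a trait of members. Weak sites without GR that were kept from 0 h had a GR peak under 10 kb in 10.7% of cases.

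Nearness of members to 24 h regions followed this distance. Members under 1 kb from a GR peak were near a 24 h region in 17 of 246 cases (6.91%, 4.36 to 10.8%). At 1 to 10 kb the share was 4.14% (43 of 1038), at 10 to 50 kb 3.12% (62 of 1986), and at 50 kb or more 0.904% (48 of 5311, 0.682 to 1.196%). All 4 distance classes had a median height of 14. Members with GR under 10 kb had 4.67% (60 of 1284) and the others 1.51% (110 of 7297), a difference of 3.17 points (2.10 to 4.49). On 18 of 20 chromosomes the first share exceeded the second. At 0 h the same split gave 4.98% and 4.33%, a difference of 0.654 points (-0.516 to 2.06), which was 1.05 points (0.148 to 1.99) with GR under 50 kb and 3.49 points (1.57 to 5.60) with regions under 10 kb. At 240 h it gave 3.89% and 4.26%, a difference of -0.368 points (-1.42 to 0.913).

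Part of that excess was counted at 24 h regions which themselves had GR beside them. With only the 1283 regions at 24 h that had no GR peak under 1 kb, the shares were 2.41% and 1.51%, a difference of 0.907 points (0.135 to 1.93). Leaving those regions out took counts only from members with GR nearby (from 60 to 31). The others stayed at 110 of 7297. The restriction could therefore only lower the difference, and no conclusion is drawn from the drop. At 240 h the same restriction lowered the first count from 50 to 34 and left the second at 311 of 7297. It gave 2.65% and 4.26%, a difference of -1.61 points (-2.51 to -0.495). No deficit can be read from that interval, for the same reason.

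The excess was also counted where C/EBPβ peaks were clustered. Among members with another C/EBPβ 6 h peak under 10 kb away, 58 of 1106 with GR nearby (5.24%) and 64 of 2827 without it (2.26%) were near a 24 h region. That difference was 2.98 points (1.66 to 4.53). Among members with no other C/EBPβ 6 h peak in that range, the counts were 2 of 178 (1.12%) and 46 of 4470 (1.03%), a difference of 0.0945 points (-0.789 to 2.99). The 2 differences were 2.89 points apart (-0.292 to 4.67), an interval that includes 0. Strong new sites without GR had shares of 8.13% with GR nearby (40 of 492) and 2.59% without (68 of 2627). Their difference of 5.54 points (3.33 to 8.35) was not separated from that of members (-2.38 points, -5.38 to 0.199).

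**Figure D4:**
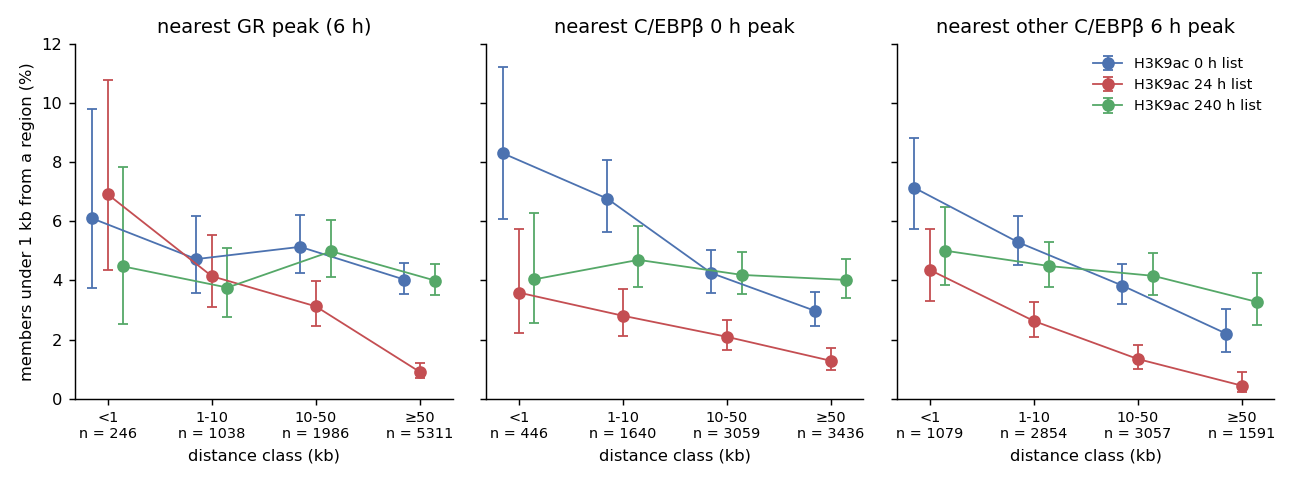
Share of members under 1 kb from a listed H3K9ac region (vertical axis, percent) by class of distance to the nearest GR peak (left), C/EBPβ 0 h peak (middle) and other C/EBPβ 6 h peak (right). Points are the 0, 24 and 240 h lists and bars are 95% Wilson intervals. The 24 h share drops from 6.91% to 0.904% with distance from GR, and the 0 h share from 8.30% to 2.97% with distance from C/EBPβ 0 h peaks.

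Nearness to 0 h regions followed the distance to C/EBPβ 0 h peaks. A C/EBPβ 0 h peak lay under 10 kb from 2086 members (24.3%, 23.4 to 25.2%), against 24.9% of all new C/EBPβ 6 h peaks. Members under 1 kb from such a peak were near a 0 h region in 37 of 446 cases (8.30%, 6.08 to 11.2%). The shares at 1 to 10, 10 to 50 and 50 kb or more were 6.77%, 4.25% and 2.97%. With a C/EBPβ 0 h peak under 10 kb members had 7.09% and otherwise 3.57%, a difference of 3.52 points (2.39 to 4.78). At 24 h these shares were 2.97% and 1.66%, a difference of 1.31 points (0.578 to 2.18). At 240 h they were 4.55% and 4.10%, a difference of 0.459 points (-0.502 to 1.54). With regions under 10 kb counted as near, the 240 h difference was 3.86 points (2.24 to 5.57). Within members that had a C/EBPβ 0 h peak under 10 kb, GR nearby went with 5.42% against 1.88% near 24 h regions. Within the others it went with 3.92% against 1.42%.

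Members had C/EBPβ neighbours about as often as the whole list. Another C/EBPβ 6 h peak was under 10 kb from 3933 members (45.8%, 44.8 to 46.9%), against 47.7% of all C/EBPβ 6 h peaks. A strong one was under 10 kb from 2286 (26.6%), against 26.4% of all C/EBPβ 6 h peaks of height below 20. The median distance from a member to the nearest other C/EBPβ 6 h peak was 12.1 kb. Another C/EBPβ 6 h peak was under 10 kb from 49.3% of strong new sites without GR. For weak sites kept from 0 h without GR the share was 39.7%, and for weak new sites with GR 59.5%. The part of such neighbours in the differences between classes was not tested. Members with such neighbours were more often near regions of the 0 and 24 h lists. With a neighbour under 10 kb they had 5.80% near 0 h and 3.10% near 24 h regions, and without one 3.27% and 1.03%. The differences were 2.53 points (1.64 to 3.43) and 2.07 points (1.47 to 2.71). Near 240 h regions the difference was 0.776 points (-0.0764 to 1.65), 1.15 points (0.0595 to 2.07) with neighbours under 50 kb, and 3.41 points (2.06 to 4.77) with regions under 10 kb. Members 50 kb or more from any other C/EBPβ 6 h peak had 7 of 1591 near a 24 h region (0.440%, 0.213 to 0.905%).

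In windows of 100 kb on a fixed grid, 5581 windows held a member. A single member was found in 3603 of them (64.6%), 2 in 1284, and 3 or more in 694 (12.4%). A total of 1678 members (19.6%) were the only C/EBPβ 6 h peak of their window. The same share was not computed for all C/EBPβ 6 h peaks. The window from 17000000 on chromosome 6 held 8 members of heights 12 to 19 among 18 C/EBPβ 6 h peaks, with 7 GR peaks and 2 regions each of the 24 and 240 h lists. The window from 79600000 on chromosome 17 held 8 members among 19 C/EBPβ 6 h peaks, with 5 GR peaks and 7 regions at 24 h. Another 11 windows held 7 members each. The first of these in genome order, from 45200000 on chromosome 1, had them among 10 C/EBPβ 6 h peaks. It had 1 GR peak, 1 region at 0 h and no region at 24 or 240 h. Of the 11 windows, 5 held a region of the 24 h list. The same share was not computed for all windows with a member, so this count is not read as a trait of these windows.

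**Figure D5:**
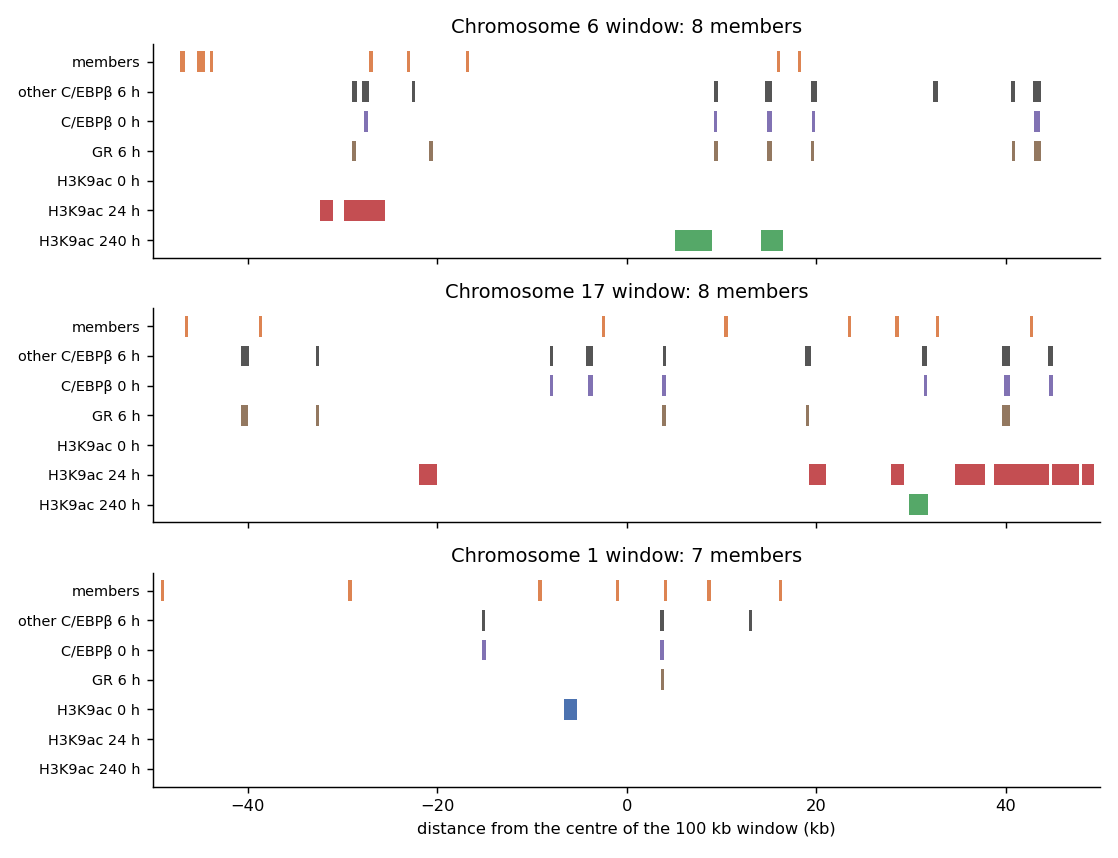
Positions of listed peaks and regions in the only windows of 100 kb with 8 members and in the first of 11 windows tied at 7 (horizontal axis, distance from the window's centre in kb, with peaks under 0.35 kb drawn at that width). Rows from the top are members, other C/EBPβ 6 h peaks, C/EBPβ 0 h peaks, GR peaks, then the acetylated regions of each time. The windows on chromosomes 6 and 17 hold 8 members each and the one on chromosome 1 holds 7.

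Seen from the acetylated regions, members were near 387 of the 4429 regions at 0 h (8.74%, 7.94 to 9.61%). They were near 164 of the 1629 regions at 24 h (10.1%, 8.70 to 11.6%) and near 365 of the 7845 at 240 h (4.65%, 4.21 to 5.14%). The 24 h share was 5.41 points above the 240 h share (3.96 to 7.03), whereas it differed from the 0 h share by 1.33 points (-0.291 to 3.08). Regions with other listed factor peaks and no member followed the same order, with 20.05% at 0 h, 29.6% at 24 h and 10.3% at 240 h. The lists also differ in median region width (1500, 1300 and 1600 bp) and each is 1 library. Differences between lists in these shares are therefore not read as an effect of time. Most regions near a member had no other kind of factor peak. Most regions of each list had no listed factor peak at all, with 71.2% at 0 h, 60.3% at 24 h and 85.0% at 240 h. Lack of other factor peaks is therefore not read as a trait of regions near members. A member was the only kind of listed C/EBPβ or GR peak under 1 kb from 296 regions of the 0 h list (6.68%), 113 of the 24 h list (6.94%) and 306 of the 240 h list (3.90%). Of the 170 members near 24 h regions, 116 (68.2%) were at such regions. In counts that can overlap, 41 were at regions that also had a strong C/EBPβ 6 h peak, 29 (17.1%) at regions with a GR peak and 25 at regions with a C/EBPβ 0 h peak. At 0 h and 240 h, 4.74% and 4.43% of the members near regions were at regions with GR. These shares of members were not computed for other C/EBPβ 6 h peaks, so they are not read as traits of members.

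Regions with members alone were then set beside regions with no listed factor peak. Their median average read counts, as the authors list them, were 11 and 10 in the 0 h list. Both were 9 at 24 h, and at 240 h they were 12 and 11. A false discovery rate listed as 0, the authors' firmest step, was found for 58.5% of the regions with members alone at 240 h and 42.7% of those without factors, a difference of 15.8 points (10.1 to 21.3). At 0 h the difference was 6.22 points (0.275 to 12.1), and at 24 h 1.68 points (-3.82 to 9.38). Regions with other listed factor peaks and no member had 61.5% at 0 h, 28.2% at 24 h and 60.1% at 240 h. Those with members alone had 52.7%, 13.3% and 58.5%, so the firmest step was not particular to members. The regions with members alone were also wider, with medians of 1825 and 1550 bp at 240 h, 1550 and 1400 bp at 0 h, and 1300 and 1200 bp at 24 h. The part of width in these differences was not tested.

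Among regions near a member, those with the highest average read count in each list differed in their other peaks. At 24 h the region with most reads near a member had an average read count of 16 and lay on chromosome 1 at 40052250 to 40054050. Its member, at 40052522 to 40052763, had height 12 and fold 6.64, and a GR peak lay 0.279 kb away. That region held or neighboured 3 C/EBPβ 6 h peaks, the highest of height 30, and 2 GR peaks, the highest of height 33. The next, on chromosome 12 with 15 reads, had a member of height 14 at 70917222 to 70917501 as its only factor peak. The third, on chromosome 10 with 13 reads, had a member of height 19 at 95611309 to 95611919, also alone.

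At 240 h the leading member lay on chromosome 19 at 40410241 to 40410694, with height 17 and fold 7.62. It was the only listed factor peak of a region of 7150 bp with 38 reads. The second lay on chromosome 10 at 12517460 to 12517703 (height 19), alone in a region of 6100 bp with 31 reads. The third lay on chromosome 6 at 88722562 to 88722845 (height 13) in a region of 13300 bp with 29 reads. That region held or neighboured 2 C/EBPβ 6 h peaks, the highest of height 23, and a C/EBPβ 0 h peak of height 17. At 0 h the leading member lay on chromosome 6 at 88349424 to 88349724 (height 16), in a region of 6100 bp with 23 reads and a C/EBPβ 0 h peak of height 20. The members that followed lay on chromosome 15 at 64299154 to 64299429 (height 14, beside a region with 22 reads) and on chromosome 3 at 123196639 to 123196922 (height 19, 21 reads). The chromosome 15 region held or neighboured 2 C/EBPβ 6 h peaks, the highest of height 25, and a C/EBPβ 0 h peak of height 28. The chromosome 3 member was the only factor peak of its region.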

How the data were processed

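Chromatin immunoprecipitation with sequencing gave 1 library for each factor and time. Per the labels' protocols, reads of 36 bp were aligned to mm8 by ELAND (at most 2 mismatches). Only uniquely placed reads entered, once per start coordinate, which caps high peaks and leaves repeats uncovered. How peaks were called, and at which threshold, is not given in the sources used here. The deposited C/EBPβ and GR lists give fold enrichment (a ratio) and peak height (a read signal). The deposited H3K9ac lists give the authors' FDR, read here as a q-value, and average read count, a read signal. A deposited list of 6 regions of input bias gives positions as other values, and no member overlapped one. The 4 input libraries were not analysed here.

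Overlap meant at least 1 shared bp, with ends that only touch counted as not overlapping. Near meant a gap under 1 kb and nearby a gap under 10 kb. Shares have 95% Wilson and differences 95% Newcombe intervals. With 1 library per group there is no p-value. Gaps and intervals were tested on simulated lists. Python 3.11.15, numpy 2.4.6, pandas 2.3.3 and matplotlib 3.10.9 were used. Members and comparisons were chosen with earlier results of these data known. Named regions are the 5 members of highest fold, the 3 members near the regions with most reads in each H3K9ac list, and the 3 windows with most members (ties by position). The distance classes, strata by neighbouring peaks, regions without GR, 1 peak per window and height weighting were added after the lists had been seen.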

Additional observations from a re-analysis of the deposited data

Results flagged for a closer look

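Members set against weak sites without GR that were kept from 0 h gave differences of opposite direction by the time of the H3K9ac list. The difference was -3.63 percentage points near 0 h regions, 1.07 near 24 h regions and -1.55 near 240 h regions. Each interval excluded 0. The differences between times were not tested, since every time is 1 library. The lists hold regions enriched at one time relative to another, so the directions are not independent between lists.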

How the results depend on the processing

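No paired analysis was possible because every factor and time has a single library. The unknown depth limits every statement about a peak missing from a list, so a member may have had signal at 0 h or for GR below the listed height of 12. The number of members was 8581, 7969 when no 0 h or GR peak could lie under 1 kb, 5891 with heights below 16 and 8580 with touching ends counted as overlap.

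Of the differences under alternatives planned with earlier results known, 110 kept their direction and side of 0, or stayed within counting error, 1 lost its call and 6 gained one. Of those added later, 29 stayed, 2 lost and 5 gained. None reversed. The planned motif and gene location results were not run, because no mm8 genome or annotation was used here.

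Members near 0, 24 and 240 h regions were 3.45%, 1.35% and 3.30% by direct overlap and 10.9%, 6.16% and 11.2% with gaps under 10 kb, by construction. With 1 member per 100 kb the 24 h share was 1.63%. The shares of 0, 24 and 240 h regions near members were 6.43%, 6.75% and 3.47% by overlap, 24.9%, 31.98% and 15.6% under 10 kb, and 5.58%, 6.08% and 2.86% with heights of at least 14.

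Members minus strong new sites near 240 h regions was -0.794 points with heights of at least 14 and -0.838 with 1 peak per 100 kb. For GR nearby, the 0 h difference was 3.49 with regions under 10 kb, 1.05 with GR under 50 kb and 1.40 with 1 peak per 100 kb. The 24 h difference was 0.0945 without another 6 h peak nearby, and the 240 h difference -1.61 over regions without GR. At 240 h, a C/EBPβ 0 h peak nearby gave 3.86 with regions under 10 kb. Another 6 h peak nearby gave 3.41 with regions under 10 kb, 1.15 with neighbours under 50 kb and 1.40 with 1 peak per 100 kb. Heights of 16 to 19 against 12 to 15 gave 0.990 at 240 h by overlap, 1.23 with 1 peak per 100 kb and, at 24 h, 0.699 with 1 peak per 100 kb. The change to -1.61 followed from a restriction that took counts only from members with GR nearby. The cause of the other changes was not tested.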

Other observations

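Members made up between 37.3% and 46.1% of the C/EBPβ 6 h peaks of a chromosome, against 41.4% over all 20. The lowest shares were on chromosomes 15 (37.3%, 34.7 to 39.9%), 6 (37.6%, 35.6 to 39.8%) and 17 (38.0%, 34.6 to 41.5%). The highest were on chromosomes X (46.1%, 41.7 to 50.5%), 7 (45.8%, 42.4 to 49.2%) and 14 (45.7%, 42.1 to 49.3%). Near 24 h regions members were below strong new sites without GR on 15 of the 20 chromosomes. Chromosome 17 had the highest share of members near 24 h regions (4.47%) and chromosome 7 the lowest (0.542%).

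Members whose centre fell inside an acetylated region lay a median of 413 bp from its middle at 0 h (276 members), 394 bp at 24 h (99 members) and 435 bp at 240 h (263 members). As a share of the distance from the middle to the edge, the medians were 0.429, 0.408 and 0.424. Strong new sites without GR had 0.474 (89 sites), 0.349 (65 sites) and 0.378 (119 sites), with quartiles that overlapped those of members at each time.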
